A study of Mus musculus with 12 samples.

Results

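The genotype difference averaged over both hemispheres asks which genes of selected astrocytes were higher or lower in mice labelled as the astrocytic Nhe1 knockout, whichever side of the brain the cells came from. It uses 12 of the 12 libraries of the series. The cells had been selected with ACSA-2, an antigen on the surface of astrocytes, and their RNA was sequenced 24 h after transient middle cerebral artery occlusion (tMCAO), a stroke model in which the artery of 1 hemisphere is blocked and reopened. Each of 6 C57BL/6 mice, aged 90 to 120 days after birth, gave 1 library from the ipsilateral (stroke) hemisphere and 1 from the contralateral one, matched by the number in the title. All mice carried Gfap-CreERT2+/-;Nhe1f/f, an inducible Cre under the control of Gfap together with floxed Nhe1. The 3 mice called wild-type (296, 297 and 474, here labelled WT) received corn oil, and the 3 called Nhe1 Astro-KO (295, 298 and 300, here labelled KO) received tamoxifen. Effects of tamoxifen and of the deletion cannot be told apart. The 2 values of each mouse, in log2 CPM (read counts scaled to a common library total), were averaged, and the 3 mouse means labelled KO were compared with the 3 labelled WT.

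Nhe1 is a sodium-proton exchanger of the plasma membrane that extrudes acid and brings in sodium, and in ischaemic brain its activity is linked to sodium load and swelling of astrocytes. Astrocytes clear glutamate, supply fuel to neurons, and reach blood vessels with endfeet that carry the water channel Aqp4. Wnt7a and Wnt7b are ligands made by brain cells that act on endothelium through beta-catenin to keep the blood-brain barrier.

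The libraries held 11187723 to 15780600 counts, with 18292 to 19024 genes detected. Mouse 296, labelled WT, carried 2733 and 2917 counts of Y-linked genes, against at most 8 in any library of the other 5 mice. Its contralateral and ipsilateral libraries also had the highest mean level of neutrophil markers of the 12 (2.75 and 3.59 log2 CPM). The ipsilateral library of mouse 300, labelled KO, had the lowest mean level of microglial markers (4.34 log2 CPM, against 4.84 or more elsewhere). Astrocyte markers were present in all 12 libraries, the 24 genes of the homeostatic astrocyte list adding up to 13415 CPM or more. In the ipsilateral WT libraries the 18 oligodendrocyte markers added up to 20499 to 32645 CPM, and the astrocyte list to 13415 to 15892 CPM. Levels of oligodendrocyte and choroid plexus markers are given beside the results they moved with. Fewer cells of a type and less RNA per cell cannot be told apart in such samples. Both libraries of mouse 296 and the ipsilateral library of mouse 300 were left out together in an added analysis whose values follow. Mouse 300 entered its averages with the contralateral library alone, so a difference between sides is mixed into that genotype comparison.

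Of 15571 genes tested, 546 differed between the labelled genotypes at an adjusted p under 0.05 (limma on mouse means, Benjamini-Hochberg), a background of 3.51%. Of these 214 were higher in KO (1.37%) and 332 lower (2.13%), and 240 differed by more than 2-fold, 48 higher and 192 lower. The falls included the choroid plexus gene Ttr and the myelin genes Myrf, Mag and Mog, and the rises the astrocytic transporter genes Slc6a11 and Slc4a4 and the ligand gene Wnt7b. The size of a call ranged from 0.47 to 2.86 on the log2 scale with a median of 0.95, while the median over all genes tested was 0.01. All 546 genes had the same sign on the ipsilateral as on the contralateral side. They were picked by the average of the 2 sides, so this follows in part from the selection. The number of calls rested on few mice. It was 1, 1, 0 and 1 without mouse 297, 295, 298 or 300 respectively, 895 without mouse 296 and 1110 without mouse 474. Without mouse 296 and the ipsilateral library of mouse 300 it was 1169. All 546 kept their sign in each of the 6 fits that left out a mouse. Those fits reuse the mice by which the genes were picked, so the kept signs follow in part from the selection. Leaving out single libraries gave 0 calls (contralateral, mouse 300) to 1050 (contralateral, mouse 474), and 34 to 932 for each of the other 10. The mouse concerned then entered with 1 side only, so these counts mix side with genotype. With the mean level of oligodendrocyte markers as a covariate 2 genes passed, neither of them among the 546. The differences themselves were not all smaller with it: of 55 genes that passed and were followed under each setting, 33 were as large or larger with the covariate and 22 smaller, 2 of these under 0.5 of their size. Hapln2 was at -1.94 and Slc12a2 at -0.97, for example, against -1.86 and -1.02. Car12 was at -1.01 and Kl at -0.78, against -1.92 and -1.86. The median of the 18 oligodendrocyte markers was -0.26 with the covariate, against -1.09. The covariate was itself lower in KO, so this fit cannot part it from genotype and no conclusion is drawn.

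Taking each side on its own, 1366 genes (8.77%) had all 3 KO libraries above or all 3 below the 3 WT libraries on the ipsilateral side and again, in the same direction, on the contralateral side, 680 higher (4.37%) and 686 lower (4.41%). Without mouse 474 this count was 3367 and without mouse 300 it was 2447. Without mouse 297, 295, 298 or 296 it was 1636, 1810, 1856 or 2015. Fewer libraries have to separate in each of these, and why the count without mouse 474 was the highest was not tested. A total of 446 genes (2.86%) met this condition and also passed the averaged comparison, 158 higher (1.01%) and 288 lower (1.85%). These made up 81.7% of the 546 calls, with 98 of the others apart on 1 side only and 2 on neither. The condition picks genes by the values that the averaged test also uses, so the share is a description. An edgeR quasi-likelihood fit of all 12 libraries called 983 genes ipsilaterally (6.31%), 675 higher (4.33%) and 308 lower (1.98%). Contralaterally it called 233 genes (1.5%), 13 higher (0.0835%) and 220 lower (1.41%) and 391 without mouse 474, 100 of them higher. Both sides together called 145 genes in the same direction (0.931%). Without mouse 297 the ipsilateral count was 0, and without mouse 298 the contralateral count was 0. The contralateral count was 1 without mouse 300, 60 without mouse 295 and 69 without mouse 297, while the ipsilateral one was 233, 107 and 222 without mouse 295, 298 or 300. The difference of the genotype effect between sides, tested by limma on the difference within each mouse, passed for 0 genes. By that test 1369 had an unadjusted p under 0.05. The edgeR interaction, which took the 12 libraries as independent and left out the pairing by mouse, also passed for 0. No gene is therefore described here as changed on 1 side only. In 36 genes (0.231%) the libraries were apart in opposite directions on the 2 sides.

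**Figure D1:**
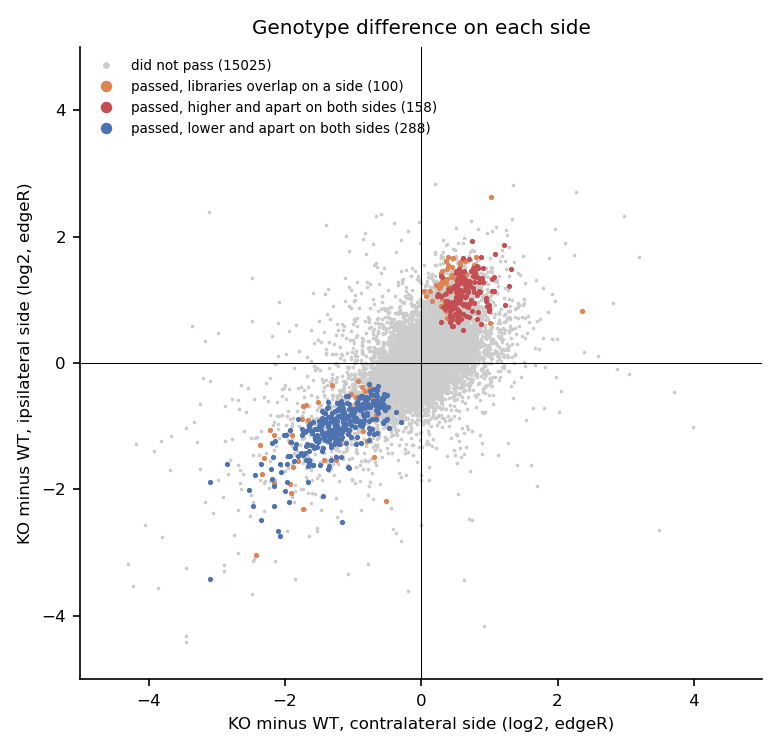
Genotype difference of each tested gene on the contralateral (horizontal) and ipsilateral (vertical) side, KO minus WT in log2 units from the edgeR fit; 5 genes lie outside the axes. Red (158 higher) and blue (288 lower) points passed the averaged comparison and stood apart on both sides, orange points (100) passed but overlapped on a side. Coloured points lie at the upper right and lower left, since all 546 had the same sign on both sides.

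Among the genes that stood apart on both sides and averaged 2 log2 CPM or more, the largest fall was that of Ttr (ENSMUSG00000061808, chromosome 18, 20665280 to 20674321, mm10), which encodes transthyretin, the thyroid hormone carrier that choroid plexus epithelium secretes into cerebrospinal fluid. In mice labelled WT, Ttr read 3899, 5687 and 7306 CPM contralaterally and 5750, 3217 and 2260 CPM ipsilaterally (mice 296, 297 and 474). In mice labelled KO it read 935, 573 and 1793 CPM contralaterally and 537, 1052 and 411 CPM ipsilaterally (mice 295, 298 and 300). Every KO library lay below every WT library. The mouse means were 12.09 ± 0.11 log2 CPM in WT and 9.61 ± 0.14 in KO (SD, n = 3 mice), a difference of -2.48 ± 0.14 (SE; limma adjusted p = 0.00188, the smallest of all genes). The call was lost without mouse 298, without the contralateral library of mouse 300 and with the oligodendrocyte covariate, where the difference was -2.74 (adjusted p = 0.0696), and held in 31 of 34 alternatives.

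Of the 12 tested markers of ependyma and choroid plexus, 5 fell and 0 rose, and 6 lay above and 6 below 0 with a median of -0.23. Over all genes tested 2.13% fell and 1.37% rose. The 5 were Ttr, Kl (klotho, -1.86), Prlr (the prolactin receptor, -1.90), Folr1 (the folate receptor that carries folate into cerebrospinal fluid, -0.82) and Clic6 (a chloride channel family protein, -0.74), of which Ttr and Folr1 stood apart on both sides. Kl read 33.7, 131 and 160 CPM contralaterally and 53.9, 55.9 and 56.3 CPM ipsilaterally in mice 296, 297 and 474. In mice 295, 298 and 300 it read 20.3, 15.9 and 51.7 CPM contralaterally and 13.8, 32.3 and 6.88 CPM ipsilaterally, so that the contralateral libraries overlapped and the ipsilateral ones did not. Kcne2, a potassium channel subunit of choroid plexus, was at -1.48 and did not pass (adjusted p = 0.095). Of the genes of motile cilia in the list, Foxj1, their master transcription factor, was at 0.27, Ccdc153 at 0.92 and Tmem212 at 0.60, and none of them passed. Without mouse 474, 3 of the 12 markers rose and 4 fell. The summed level of the 12 markers was 3149 to 8462 CPM in the 6 WT libraries and 983 to 2991 CPM in the 6 KO libraries, which did not overlap. Ttr made up 71.8% to 91.3% of this sum in WT and 33.1% to 59.9% in KO, and without it the sums overlapped, at 467 to 1396 CPM in WT and 572 to 1199 CPM in KO. Without mouse 297, 295, 298 or 300 in turn the number of markers that fell was 1, 1, 0 and 1, and with edgeR on summed counts it was 3. Kl did not pass edgeR on summed counts (adjusted p = 0.0541), nor limma with the mouse as a block over 12 libraries (adjusted p = 0.0528). How much choroid plexus tissue entered each preparation was not tested.

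Several of the other large falls were of genes also known from choroid plexus epithelium. Slc4a5, a sodium-bicarbonate cotransporter, read 14.4 to 46.2 CPM in the WT libraries (median 26.3) and 2.58 to 13.4 CPM in the KO ones (median 6.96), and fell by 2.05 on the log2 scale (SE 0.17, adjusted p = 0.011). All 6 KO libraries were below all 6 WT libraries. Cldn1, a tight junction protein of epithelia, read 6.28 to 21.0 CPM in WT (median 13) and 1.34 to 4.98 CPM in KO (median 2.21), again without overlap, and fell by 2.33 (SE 0.30, adjusted p = 0.0152). Tmem72 fell by 2.07 and Mfrp, a frizzled-related membrane protein, by 1.83. Mfrp overlaps 4 other annotated genes, so that its reads may be shared with them.

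By count, myelin genes were the largest group of falls among the lists examined, which differ in size. Of 18 oligodendrocyte markers tested, 18 were below 0, with a median of -1.09, and 7 fell, against 0 that rose. The share that fell over all genes tested was 2.13%. The 7 included Myrf, the transcription factor that drives myelination (-1.39 ± 0.17 SE, adjusted p = 0.0152), Mal (-1.25), Opalin (-1.22), Cnp (-0.99), and the myelin glycoprotein genes Mag (-1.30) and Mog (-1.27). All 7 and Cldn14 (-1.19, adjusted p = 0.073) stood apart on both sides, as did 4.41% of all genes tested with KO lower. The medians were -0.99 ipsilaterally and -1.35 contralaterally. Of 12 markers of oligodendrocyte precursors 0 passed by limma or by edgeR on summed counts and 3 had an unadjusted p under 0.05. Their median was -0.05, and 0.18 without mouse 296 or 0.09 without mouse 300. Whether their difference departs from that of the mature markers was not tested.

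Myrf (ENSMUSG00000036098, chromosome 19, 10208272 to 10240748, mm10) read 490, 597 and 528 CPM contralaterally and 793, 999 and 589 CPM ipsilaterally in mice 296, 297 and 474. Mice 295, 298 and 300 gave 251, 162 and 138 CPM contralaterally and 339, 324 and 354 CPM ipsilaterally. The lowest WT library was above the highest KO library. Hapln2, a link protein of the matrix at nodes of Ranvier, read 369, 344 and 308 CPM contralaterally and 506, 589 and 274 CPM ipsilaterally in WT, against 90.2, 82.1 and 71.7 CPM contralaterally and 120, 146 and 148 CPM ipsilaterally in KO. It fell by 1.86 (SE 0.17, adjusted p = 0.011) and passed the edgeR test on either side alone (adjusted p = 0.00659 ipsilaterally and 0.00721 contralaterally).

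Mbp, the myelin basic protein gene, was 1 of the 11 markers that did not pass. In KO it read 1655, 1448 and 1371 CPM contralaterally and 3032, 1891 and 12264 CPM ipsilaterally (mice 295, 298 and 300), and in WT 4961, 3657 and 4826 CPM contralaterally and 2717, 2780 and 2514 CPM ipsilaterally (mice 296, 297 and 474). The ipsilateral library of mouse 300 was the highest of all 12, and the difference of mouse means, -0.47, did not pass (adjusted p = 0.423). Mobp, another abundant myelin gene, was at -0.69 (adjusted p = 0.224), with a KO library of 5044 CPM above the highest WT library of 2770 CPM. The summed level of the 18 markers was 20499 to 32645 CPM in the 6 WT libraries and 6903 to 27092 CPM in the 6 KO ones, the highest KO value being that library. Contralaterally the sums did not overlap, at 21732 to 24092 CPM in WT and 6903 to 9931 CPM in KO. Without mouse 297, 295, 298 or 300 in turn 0 of the 18 markers fell, without mouse 296 the count was 15, and without mouse 296 and the ipsilateral library of mouse 300 it was 15. The number of oligodendrocytes in each preparation was not tested.

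**Figure D2:**
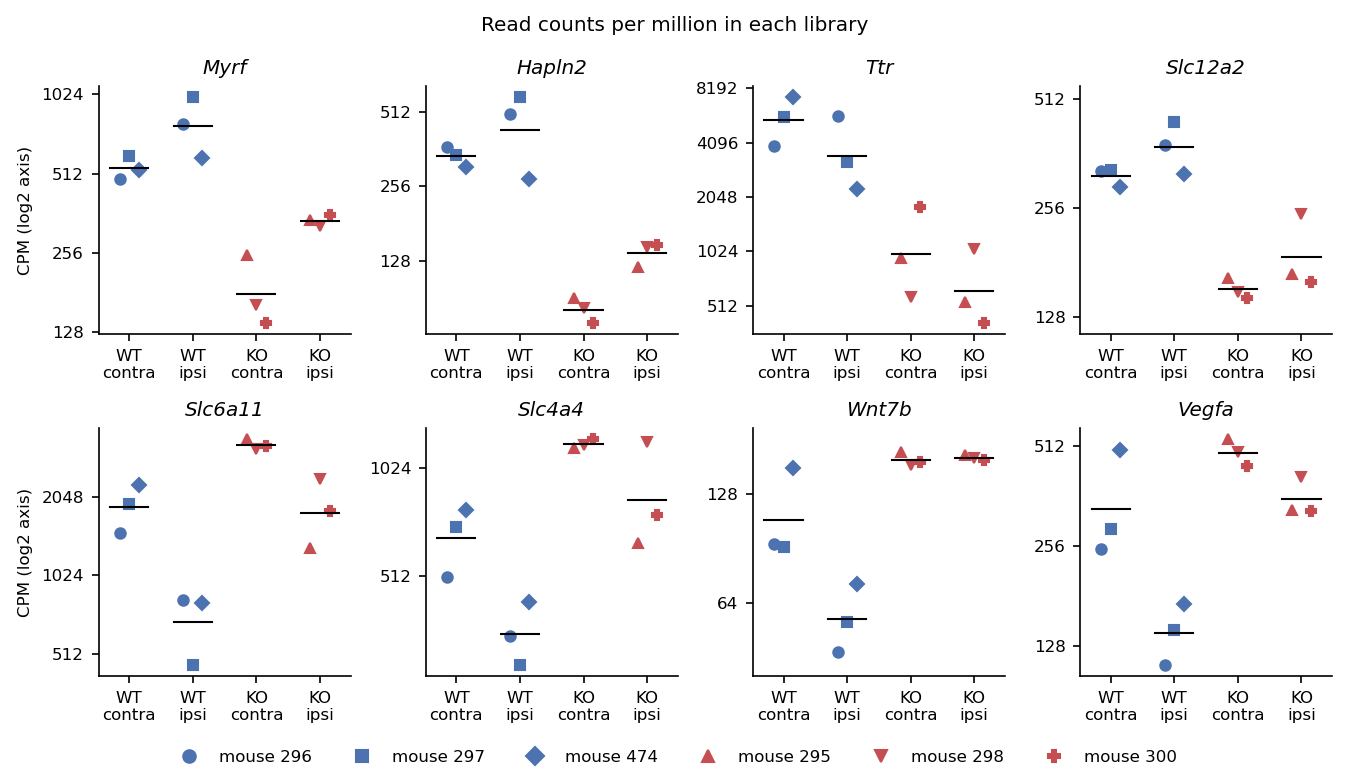
CPM (log2 axis, its range differing between panels) of 8 genes in each of the 12 libraries, by labelled genotype and side; each symbol is 1 mouse and the bar is the geometric mean of 3 libraries. Myrf, Hapln2, Ttr and Slc12a2 are lower in every KO library than in every WT library, and Vegfa overlaps on the contralateral side through mouse 474.

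The promoters of 2 genes that fell and 1 that rose are shown as examples of the windows in which a short motif was counted. They were picked by hand and do not stand for their groups, since most windows of genes lower in KO do not hold the motif. Each is the 250 bases before the RefSeq start site (GRCm38.p6), 5′ to 3′ on the strand of the gene, with ACAAAG in capitals. ACAAAG, searched on both strands, is a form of the core motif known for SOX factors, among them Sox10 of oligodendrocytes, and it overlaps in part with the motif of TCF and LEF factors. Opalin (chr19:41077114-41077363, minus strand) encodes a membrane protein of mature oligodendrocytes, Cnp (chr11:100574689-100574938, plus strand) the myelin enzyme CNPase, and Slc6a11 (chr6:114130991-114131240, plus strand) the astrocytic GABA transporter GAT3.
Opalin: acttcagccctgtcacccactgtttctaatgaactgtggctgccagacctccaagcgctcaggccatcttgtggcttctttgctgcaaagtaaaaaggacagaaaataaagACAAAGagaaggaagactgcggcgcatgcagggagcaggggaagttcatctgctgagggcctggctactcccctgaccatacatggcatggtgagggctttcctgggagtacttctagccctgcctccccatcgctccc
Cnp: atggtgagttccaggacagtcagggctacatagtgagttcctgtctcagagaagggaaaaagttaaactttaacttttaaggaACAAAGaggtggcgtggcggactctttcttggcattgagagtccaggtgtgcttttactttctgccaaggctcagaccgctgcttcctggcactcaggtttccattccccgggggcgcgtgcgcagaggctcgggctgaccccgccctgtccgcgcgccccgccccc
Slc6a11: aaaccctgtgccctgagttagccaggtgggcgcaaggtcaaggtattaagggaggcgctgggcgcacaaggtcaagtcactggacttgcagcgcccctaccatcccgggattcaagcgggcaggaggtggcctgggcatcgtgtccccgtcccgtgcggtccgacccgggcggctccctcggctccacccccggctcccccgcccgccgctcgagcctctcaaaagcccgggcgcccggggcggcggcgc
The motif starts 139 bases before the start site in Opalin and 167 bases before it in Cnp, and the Slc6a11 window has none on either strand. Over all genes tested, 12.7% of 14941 windows held it on either strand. Among genes lower in KO the share was 16.1% (57 of 353 windows), among genes higher in KO 10.1% (21 of 208), and in the oligodendrocyte list 36.8% (7 of 19), against 16.5% of all 32851 windows. Windows of the same gene can overlap, and a match is a description of these letters only. Myrf, Wnt7b and Gria1 had no entry.

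Genes of resting astrocytes lay above the WT level. Of 24 homeostatic astrocyte markers 24 were above 0, with a median of 0.74, and 6 rose, among them Slc6a11 (1.10 ± 0.18 SE, adjusted p = 0.0249), the adhesion molecule Ntm (1.06), the glycogen-targeting phosphatase subunit Ppp1r3g (1.01), the fatty acid ligase Acsl6 (0.90) and the glycolytic enzyme Aldoc (0.98). A total of 10 stood apart on both sides. Over all genes tested 1.37% rose, and 4.37% stood apart on both sides with KO higher. Those that did not pass included the glutamate transporters Slc1a2 (0.83, adjusted p = 0.073) and Slc1a3 (0.79, adjusted p = 0.067). Slc6a11 read 1489, 1918 and 2268 CPM contralaterally and 822, 466 and 805 CPM ipsilaterally in mice 296, 297 and 474. In mice 295, 298 and 300 it read 3391, 3110 and 3203 CPM contralaterally and 1305, 2398 and 1799 CPM ipsilaterally. It was lower on the stroke side in all 6 mice, and on each side the 3 KO libraries were above the 3 WT libraries.

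The summed level of the homeostatic list was 25152 to 33116 CPM contralaterally and 13415 to 15892 CPM ipsilaterally in WT, against 34229 to 39896 CPM and 21153 to 35307 CPM in KO. The summed oligodendrocyte markers and Ttr were lower in KO, as given above, and their part in the rises was not tested. With the oligodendrocyte covariate 16 of the 24 markers remained above 0, with a median of 0.42, and 0 passed. Without mouse 297, 295, 298 or 300 in turn 24 were above 0 and 0 passed, while 9 passed without mouse 296, 11 without mouse 474 and 9 without mouse 296 and the ipsilateral library of mouse 300. The edgeR test on summed counts called 3.

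Of 14 endfoot genes tested, 12 were above 0 with a median of 0.49. A total of 2 rose, among them Dag1, which encodes dystroglycan of the complex that anchors Aqp4 (0.60 ± 0.11 SE, adjusted p = 0.0364), and 1 fell, the laminin receptor subunit Itgb4 (-0.71, adjusted p = 0.0375). All 3 stood apart on both sides. In the whole list 7 of 14 were apart on both sides with KO higher and 1 with KO lower. Over all genes tested these shares were 4.37% and 4.41%, while 1.37% rose and 2.13% fell. Aqp4 itself read 189 to 489 CPM in WT and 524 to 776 CPM in KO, with no overlap over the 12 libraries, and at 0.98 ± 0.25 it did not pass (adjusted p = 0.0745). Without mouse 474, 5 rose and 1 fell. The 2 rises and the fall were lost without mouse 297, 295, 298 or 300 in turn.

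Of 13 pan-reactive genes 0 passed by limma or by edgeR on summed counts, 1 had an unadjusted p under 0.05, and 11 were below 0 with a median of -0.61. This median was -0.07 without mouse 298 and -0.21 without mouse 296. Gfap, the intermediate filament that marks reactive astrocytes and whose control region drives the Cre, was at 0.04 ± 0.29 (adjusted p = 0.945). Its KO libraries read 471 to 1391 CPM contralaterally and 2177 to 4296 CPM ipsilaterally, and its WT libraries 1057 to 1397 CPM and 1629 to 2317 CPM, so the groups overlapped on both sides. Of 11 A1 genes 0 passed with either test and 0 had an unadjusted p under 0.05, and of 12 A2 genes 0 passed with either test and 1 had an unadjusted p under 0.05. Of the A2 genes 11 were below 0, with a median of -0.41, or -0.12 without mouse 296. Without mouse 474, 1 A2 gene fell, and without mouse 296 and the ipsilateral library of mouse 300, 3 A2 genes and 1 pan-reactive gene did. In that last fit mouse 300, labelled KO, lacked its stroke side, so these falls cannot be told apart from a difference between sides.

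The 15 largest rises described next were taken among genes that passed, stood apart on both sides and averaged 2 log2 CPM or more. Adcy8, a calcium-stimulated adenylyl cyclase, read 5.56 to 25.2 CPM in WT (median 12.7) and 20.1 to 51.1 CPM in KO (median 38.9), and rose by 1.5 ± 0.30 (adjusted p = 0.0444). Trib2, a pseudokinase that regulates kinase cascades, read 38.4, 46.0 and 79.2 CPM contralaterally and 26.2, 24.7 and 40.9 CPM ipsilaterally in WT, against 114, 122 and 111 CPM contralaterally and 88.8, 129 and 86.7 CPM ipsilaterally in KO. It rose by 1.45 ± 0.22 (adjusted p = 0.0227), and every KO library was above every WT library. Gria1, the GluA1 subunit of AMPA receptors, rose by 1.21 ± 0.16 (adjusted p = 0.0155), with KO libraries of 193 to 210 CPM contralaterally and 78.9 to 140 CPM ipsilaterally, above WT libraries of 72.8 to 119 CPM and 25.9 to 57.5 CPM. Adcyap1r1, the receptor of the neuropeptide PACAP, rose by 1.23, and Shc3, a neural adaptor of receptor tyrosine kinases, by 1.12.

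The others were the transcription factors Sox21 (1.19) and Sall2 (1.16), the mitochondrial glutamate carrier Slc25a18 (1.21), the fatty acid desaturase Fads2 (1.16), the adhesion gene Flrt1 (1.13), the kinase Nim1k (1.12), Igsf1 (1.30, on chromosome X), Mfap3l (1.14), Myom3 (1.15) and Ncan. Of the 15 rises 7 passed edgeR on summed counts, and Adcy8, Adcyap1r1, Fads2, Flrt1, Mfap3l, Myom3, Ncan and Sox21 did not. Ncan encodes neurocan, a chondroitin sulfate proteoglycan of the brain matrix. It read 131, 228 and 342 CPM contralaterally and 129, 153 and 215 CPM ipsilaterally in mice 296, 297 and 474, and 391 to 516 CPM in the 6 KO libraries, without overlap (1.26 ± 0.25, adjusted p = 0.0409). Of 29 matrix and basement membrane genes 3 rose and 0 fell, the others being the proteoglycan Bcan (0.85) and the membrane metalloproteinase Mmp14 (0.69). None of the 3 passed edgeR on summed counts. By limma 1.37% of all genes tested rose.

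The remaining large falls joined genes of unlike function. Of the 15, 14 passed edgeR on summed counts, Snx22 being the exception. Sgk1, a kinase induced by glucocorticoids and salt that regulates sodium channels, read 1418, 788 and 593 CPM contralaterally and 1533, 1097 and 500 CPM ipsilaterally in mice 296, 297 and 474. The KO mice 295, 298 and 300 gave 176, 196 and 235 CPM contralaterally and 211, 342 and 428 CPM ipsilaterally, each below the lowest WT library (-1.85 ± 0.35, adjusted p = 0.0364). Of 13 glucocorticoid response genes Sgk1 alone passed, while 12 were below 0 with a median of -0.60, which was -0.18 without mouse 296. Without mouse 296, 2 of them fell, and without mouse 474, 4. Mouse 296 had the highest Sgk1 of the WT mice, and without it the difference was -1.5 (adjusted p = 0.0189).

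Spock1, a testican proteoglycan, fell by 2.14 (SE 0.40), with WT libraries of 100 to 389 CPM and KO libraries of 32.7 to 71.3 CPM. Its 2 highest libraries were those of mouse 296, at 389 and 356 CPM. Bcat1, the cytosolic branched-chain aminotransferase, fell by 2.02 (SE 0.26), Il12rb1, a subunit of the interleukin-12 receptor, by 2.04 (SE 0.38), the cytochrome P450 gene Cyp2j12 by 1.83 (SE 0.19) and the troponin gene Tnni1 by 1.65 (SE 0.18). Wdr86 fell by 2.15 and the sorting nexin Snx22 by 1.90. Tubb3, the tubulin that marks neurons, fell by 1.87 (SE 0.30), but its deposited counts were only 0.179 of the reads implied by its RPKM, and it overlaps 1 other gene, so that its counts are uncertain. The same share was 0.167 for Prlr, 0.335 for Shc3, 0.459 for Fads2 and 0.541 for Mmp14, and between 0.596 (Slc12a2) and 0.672 (Cldn1) for Car12, Adcy8, Opalin and Mfrp, whose counts are likewise less certain, and Bcat1 overlaps 3 other genes. Tubb3 was the only one of 14 neuron markers to pass.

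Of 29 genes that move sodium, protons and bicarbonate, the functional setting of Nhe1, 6 fell and 2 rose, with a median of 0.03. Over all genes tested 2.13% fell and 1.37% rose, and whether this list departs from these shares was not tested. The carbonic anhydrases Car14 and Car12 fell by 0.98 and 1.92, the sodium-potassium-chloride cotransporter Slc12a2 (NKCC1) by 1.02, the sodium-calcium exchanger Slc8a3 by 1.43, the anion exchanger Slc4a2 by 0.59 and the sodium-bicarbonate transporter Slc4a10 by 0.96. Slc12a2 read 322, 325 and 291 CPM contralaterally and 380, 441 and 317 CPM ipsilaterally in mice 296, 297 and 474. The KO values were 164, 150 and 144 CPM contralaterally and 168, 246 and 160 CPM ipsilaterally. Every KO library was below every WT library (-1.02 ± 0.14, adjusted p = 0.0177). Slc12a2, Slc4a2, Slc4a10 and Car12 are also known from choroid plexus, whose marker Ttr was lower in KO as were the oligodendrocyte sums, and the part of either was not tested.

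The 2 that rose were the electrogenic sodium-bicarbonate cotransporter Slc4a4 and the scaffold Slc9a3r1, which binds sodium-proton exchangers of epithelia (0.68, adjusted p = 0.048). Slc4a4 read 507, 700 and 782 CPM contralaterally and 348, 289 and 433 CPM ipsilaterally in mice 296, 297 and 474. The KO values were 1164, 1188 and 1232 CPM contralaterally and 633, 1209 and 755 CPM ipsilaterally, above the WT libraries of the same side (1.06 ± 0.18, adjusted p = 0.0282). Other sodium-proton exchangers did not pass, among them Slc9a7 (0.72, adjusted p = 0.091) and Slc9a8 (-0.23, adjusted p = 0.264). Without mouse 297, 295, 298 or 300 in turn 0 of the 29 genes rose or fell, whereas 6 rose and 5 fell without mouse 474. On the deposited TPM 1 rose and 3 fell, and with edgeR on summed counts 1 rose and 5 fell.

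The study's title names Wnt signalling, and in the Wnt lists 3 genes rose. These were 1 of 14 ligand and secretion genes, 0 of 27 receptor and transduction genes, 1 of 11 feedback targets and 1 of 10 antagonists. Over all genes tested 3.51% passed and 1.37% rose, and whether the Wnt lists depart from these shares was not tested. Wnt7b (ENSMUSG00000022382, chromosome 15, 85535437 to 85582473, mm10) read 93.2, 91.4 and 151 CPM contralaterally and 47.0, 56.8 and 72.5 CPM ipsilaterally in mice 296, 297 and 474. In mice 295, 298 and 300 it read 167, 154 and 157 CPM contralaterally and 164, 161 and 159 CPM ipsilaterally. The KO libraries of both sides lay in 1 narrow range above every WT library, and the mouse means differed by 1.01 ± 0.17 (7.33 ± 0.04 against 6.31 ± 0.35 log2 CPM, SD, n = 3 mice, limma adjusted p = 0.0278). On the contralateral side alone, where the WT library of mouse 474 read 151 CPM, Wnt7b did not pass edgeR (0.51, adjusted p = 0.275), whereas ipsilaterally it did (1.46, adjusted p = 0.00659). It was the 1 of 14 ligand and secretion genes that passed.

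Wnt7a had a larger but less even difference. It read 11.2, 35.2 and 88.7 CPM contralaterally and 8.19, 14.1 and 23.2 CPM ipsilaterally in mice 296, 297 and 474, while the KO libraries were closer together, at 80.6 to 96.3 CPM contralaterally and 56.1 to 76.1 CPM ipsilaterally. The difference was 1.79 ± 0.47 and did not pass (adjusted p = 0.0779). Wnt3 went the other way, at -1.75 ± 0.47 (adjusted p = 0.0812), with its highest libraries, 70.4 and 54.4 CPM, in mouse 296. None of 27 Wnt receptor and transduction genes passed by limma or by edgeR on summed counts, 7 having an unadjusted p under 0.05, and Ctnnb1, which encodes beta-catenin, was at 0.00 (adjusted p = 0.987).

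Of 11 feedback targets of Wnt signalling 1 rose, the R-spondin receptor Lgr6 (0.99 ± 0.20, adjusted p = 0.0411), which did not pass edgeR on summed counts (adjusted p = 0.0525). The widely used target Axin2 was at 0.50 ± 0.12 (adjusted p = 0.0673) and the ubiquitin ligase gene Znrf3, which removes Wnt receptors, at 0.53 ± 0.12 (adjusted p = 0.0525), and both stood apart on both sides. Axin2 read 55.8, 60.5 and 63.6 CPM contralaterally and 26.7, 23 and 33.6 CPM ipsilaterally in WT, against 75.0, 71.2 and 71.6 CPM contralaterally and 49.6, 46.1 and 40.8 CPM ipsilaterally in KO. Among 10 antagonists Dkk3, a divergent member of the Dickkopf family, rose by 0.67 ± 0.11 (adjusted p = 0.0242), with WT libraries of 233 to 273 CPM contralaterally and 127 to 136 CPM ipsilaterally against KO libraries of 299 to 318 CPM and 259 to 291 CPM. Of the calls in these Wnt lists, Wnt7b, Lgr6 and Dkk3, none remained without mouse 297, 295, 298 or 300 in turn. Without mouse 296 or 474 the receptor and transduction genes that rose numbered 2 and 3, and the feedback targets 2 and 4.

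Of 22 angiogenic factors 1 rose, against 1.37% of all genes tested, or 3 without mouse 474. Vegfa, the main growth factor of blood vessels, read 251, 288 and 500 CPM contralaterally and 112, 142 and 171 CPM ipsilaterally in mice 296, 297 and 474. The KO values, in the order 295, 298 and 300, were 537, 492 and 445 CPM contralaterally and 328, 413 and 327 CPM ipsilaterally. The contralateral WT library of mouse 474 lay among the KO libraries, so the groups overlapped there and were apart on the ipsilateral side; the difference between sides, 0.77 on the log2 scale, did not pass (limma adjusted p = 0.561). The difference of the mouse means was 0.95 ± 0.20 (adjusted p = 0.0485), and with edgeR on summed counts it did not pass (adjusted p = 0.0902). The receptor ligand Angpt1 (0.71, adjusted p = 0.071) and Tgfb2 (0.68, adjusted p = 0.066) stood apart on both sides without passing.

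**Figure D3:**
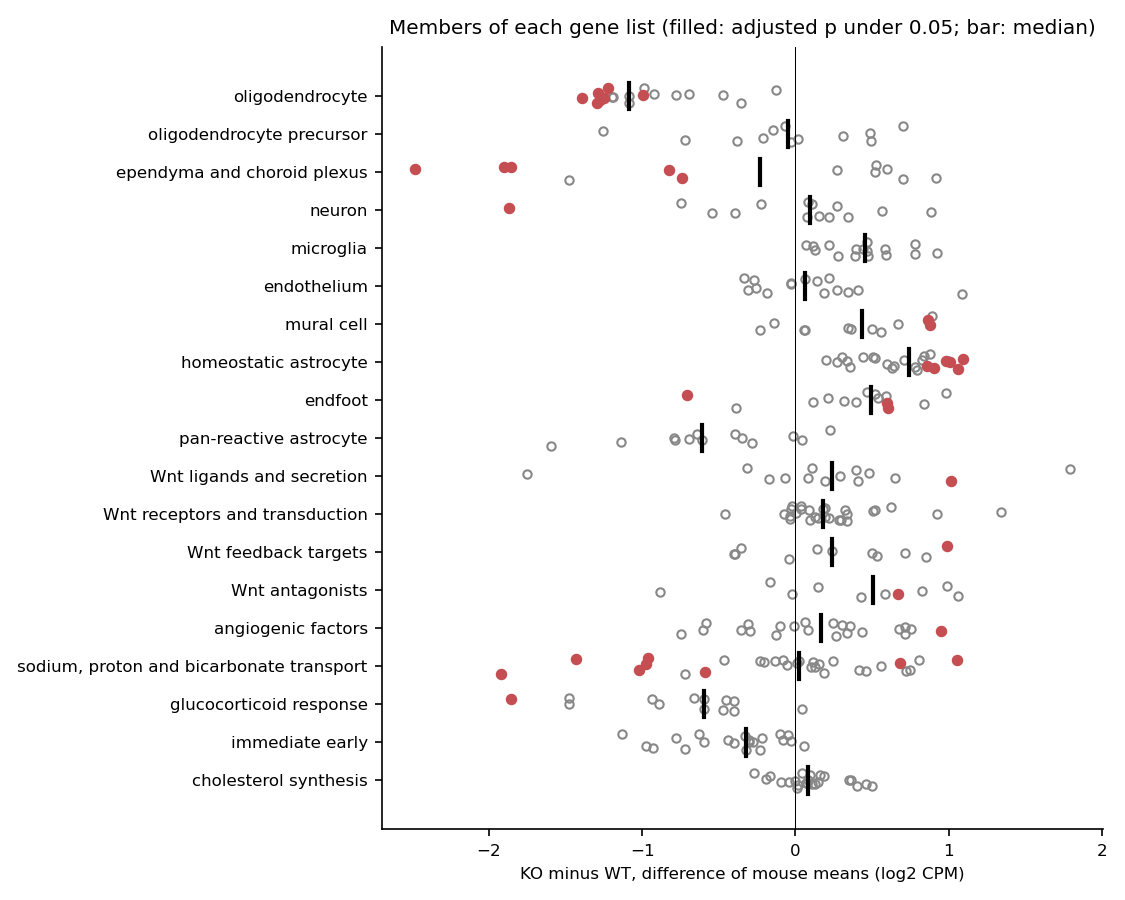
Difference of mouse means (KO minus WT, log2 CPM) of each tested member of 19 gene lists, 1 point per gene; filled points passed at an adjusted p under 0.05 and the bar is the list's median. All 18 oligodendrocyte markers lie below 0 and all 24 homeostatic astrocyte markers above it, while the ependyma and choroid plexus list is divided.

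Markers of vascular and immune cells gave few calls. Of 12 mural cell markers, genes of pericytes and smooth muscle, 10 were above 0 with a median of 0.43. On both sides 3 stood apart with KO higher, against 4.37% of all genes tested. A total of 2 rose, Vtn (0.88, limma adjusted p = 0.0487) and Higd1b (0.87, limma adjusted p = 0.0456), against 1.37% of all genes tested. Neither passed edgeR on summed counts, while 5 rose without mouse 296. Of 15 endothelial markers 0 passed by either test, with 1 at an unadjusted p under 0.05 and a median of 0.07 that was -0.04 without mouse 474 and -0.06 without mouse 300. Of 16 microglial markers 0 passed by either test, with 2 at an unadjusted p under 0.05, although 16 were above 0 (median 0.46). Without mouse 295, 10 were above 0 and the median was 0.05, and without mouse 300 it was 0.90. Of 12 monocyte and macrophage markers 0 passed by either test and 4 had an unadjusted p under 0.05 (median 0.73, or 0.40 without mouse 295). In the fibroblast list Igf2, a growth factor of meninges and choroid plexus, fell by 0.96 (adjusted p = 0.026).

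Metabolic and stress genes gave few calls. The muscle-type phosphofructokinase gene Pfkm rose by 0.85 (adjusted p = 0.036), the 1 of 19 glycolysis and lactate genes that passed, and it did not pass edgeR on summed counts. Of 23 cholesterol synthesis genes 0 passed by either test and 4 had an unadjusted p under 0.05. Of 28 oxidative phosphorylation genes, 28 cytosolic ribosomal protein genes and 20 chaperone and stress genes, 0 passed by either test and 0 had an unadjusted p under 0.05. All 28 ribosomal protein genes were below 0 with a median of -0.19, whereas without mouse 298, 13 were above 0 (median -0.004). Of 21 immediate early genes 0 passed by either test, 6 had an unadjusted p under 0.05, and 20 were below 0 with a median of -0.32, which was -0.14 without mouse 296 and -0.53 without mouse 474, where 2 fell. Xaf1, an interferon-induced gene of apoptosis, fell by 1.14 (adjusted p = 0.038), the 1 of 22 interferon response genes that passed, and did not pass edgeR on summed counts.

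**Figure D4:**
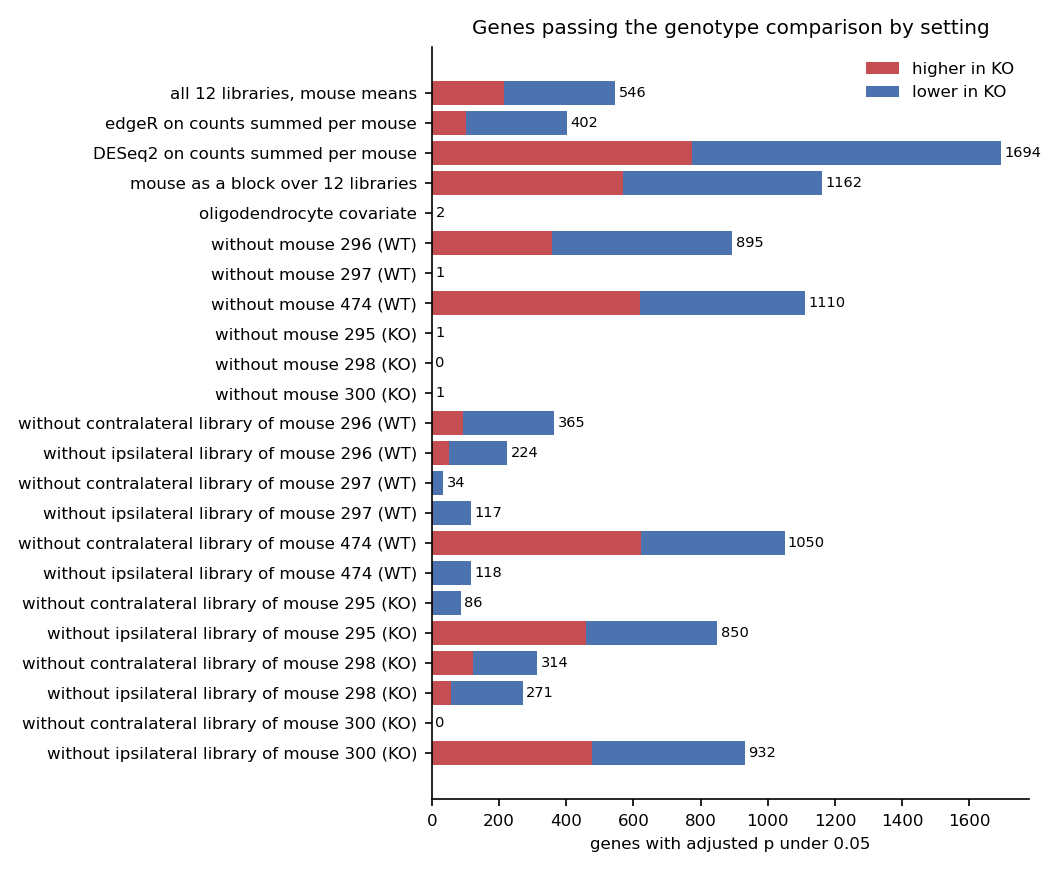
Number of genes with an adjusted p under 0.05 in the genotype comparison (horizontal, genes), higher (red) and lower (blue) in KO, with all 12 libraries and under alternatives. The count of 546 becomes 0 or 1 without mouse 297, 295, 298 or 300, and 0 without the contralateral library of mouse 300.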

How the data were processed

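Each library has a table of 48709 genes by Ensembl identifier and symbol. The main unit is the deposited count: whole numbers per gene that differ in sum between libraries. The authors' TPM entered 1 alternative, and the deposited RPKM served to check the counts. Per the submitters' processing notes the build is mm10. The aligner, counting tool and strand were not given in the sources used here. Coordinates come from the GENCODE annotation of that build, which matched 15546 of the 15571 genes tested, and promoters from RefSeq.

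Genes were kept by filterByExpr (minimum count 10). Counts were scaled by TMM in edgeR 4.0.16 and turned into log2 CPM with a prior count of 2 in R 4.3.3. The 2 values of a mouse were averaged, and limma 3.58.1 (trend, robust) compared 3 KO with 3 WT mice, with Benjamini-Hochberg adjustment at 0.05. The test is limma and not a count model because log2 CPM of a mouse are averaged; edgeR and DESeq2 1.42.0 on counts summed per mouse were alternatives. An exact permutation test of 3 against 3 could not give a p below 0.1. Group levels are means ± SD over mice, and the error of a difference is its SE; the precision is set by the number of mice rather than by depth, which was 11187723 to 15780600 counts per library. Each side was also fitted by edgeR over 12 libraries with 1 term per group. "Apart" means that the 3 KO libraries of a side are all above or all below the 3 WT libraries of that side. Libraries of 1 group were compared pairwise with a chi-squared test of their counts, which was 11.4 to 70.9 per degree of freedom, so none was taken as a duplicate. Pairing came from the number in the titles, read as the animal; deviations from the group means, over 12551 genes, had a within-mouse r of 0.695 (296), -0.0373 (297), 0.437 (474), 0.39 (295), 0.501 (298) and 0.203 (300). The labels do not say more about separate litters or days.

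Genes named are the 15 genes with the largest rise and the 15 with the largest fall that passed, were apart on both sides and averaged 2 log2 CPM or more (predicted models, pseudogenes and a fixed list of sex-linked genes aside, other genes of the sex chromosomes included), and up to 3 members with the smallest p of each of 35 lists; further list members named with values were added after these were seen. Some genes picked in this way, the one targeted included, are not reported here. The members and lists were chosen with earlier results of these data known. Other alternatives were other scalings, filters, prior counts and voom, the mouse as a block or not, an oligodendrocyte covariate, and each mouse and library left out. On simulated data with 15406 genes, the procedure recovered 81% of genes changed 2-fold and 96% of those changed 4-fold, with 11 false calls. The simulated libraries were drawn independently, without a shared effect of the mouse, and genes of low level were left unchanged. In the real data the consensus correlation between libraries of a mouse was 0.291, so these shares do not give the recovery or false calls there.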

Additional observations from a re-analysis of the deposited data

Results flagged for a closer look

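Of the genes tested, 36 (0.231%) had KO and WT libraries apart in opposite directions on the 2 sides, 20 with KO higher ipsilaterally and lower contralaterally and 16 the reverse. The difference between sides did not pass for any of them (limma, smallest adjusted p = 0.56). Lyve1, a hyaluronan receptor of lymphatic vessels and perivascular macrophages, was picked after its values were seen. It read 4.17, 4.21 and 5.70 CPM contralaterally and 30.6, 42.6 and 25.4 CPM ipsilaterally in mice 296, 297 and 474. In mice 295, 298 and 300 it read 14.1, 9.70 and 10.4 CPM contralaterally and 9.18, 11.6 and 20.4 CPM ipsilaterally. Its difference between sides was -2.55 ± 0.53 on the log2 scale.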

How the results depend on the processing

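The count of 546 genes was 402 with edgeR and 382 with voom on counts summed per mouse, with 25.6 and 27.2% of calls higher in KO against 39.2%. It was 1694 with DESeq2, 265 (29.8% higher) on deposited TPM, 332 (27.7% higher) with no filter beyond 1 count, 2 (0 higher) with the oligodendrocyte covariate and 1169 without mouse 296 and the ipsilateral library of mouse 300, an alternative chosen after seeing the data. With the mouse as a replicate block over 12 libraries 1162 genes passed (48.9% higher), and with no replicate block, the libraries taken as independent, 1977 (51.7% higher). Other scalings, filters, prior counts and estimation without robustness gave 437 to 554. Leaving out a mouse or a library gave 0 to 1110. The cause of these shifts was not tested, except that fewer mice or libraries enter the last. A mouse with 1 library left out entered with its other side alone, which mixes side with genotype. All 55 named genes that passed kept their sign in all 34 alternatives, which reuse the data by which these genes were picked. Of the 55, 37 passed with edgeR on summed counts, 53 with the block and 0 with the covariate. When mouse 297, 295, 298 or 300 was left out, 54, 54, 55 and 54 of the 55 lost their call, and 55 did without the contralateral library of mouse 300. Of the 76 others, 12 changed sign in an alternative.

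The count of 1366 genes apart on both sides was 1636 to 3367 with a mouse left out and 2864 without mouse 296 and the ipsilateral library of mouse 300; fewer libraries have to separate in these. The 983 ipsilateral calls were 1753 with DESeq2, 196 with only the libraries of that side and 0 to 1351 with a mouse left out. The 233 contralateral calls were 660 with DESeq2 and 0 to 391 with a mouse left out. The difference between sides gave 0 calls in every alternative run.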
